A study of Homo sapiens with 6 samples.

Results

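The genes described here were the 2 Tie receptor tyrosine kinases, TEK (also called TIE2) and TIE1, the angiopoietin genes ANGPT1 and ANGPT2, and PTPRB, which encodes the phosphatase VE-PTP. They were chosen by symbol. All 5 were found among the 29436 gene symbols counted, and all 5 passed the filter on low counts that left 13780 genes to test. Hemogenic endothelial cells, the endothelial cells that give rise to blood, were differentiated on AGM-S3 stromal cells from the human embryonic stem cell line H1. The 3 untreated libraries came from cultures in hematopoietic inducing medium alone, and the 3 lipoic acid libraries from the same medium with 100 µg/ml alpha lipoic acid, an antioxidant and an enzyme cofactor. In both groups cells positive for CD34, KDR and CD144 and negative for CD43 were sorted on day 8, and polyA cDNA of 1000 cells was amplified for each library. Whether the replicates of a group were cultured separately is not stated in the labels, so p values measure library-to-library spread only, and this may be technical.

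TEK is the signalling receptor of the angiopoietins and is carried by endothelial and early blood-forming cells. Angiopoietin-1, usually supplied by cells around the vessel, activates TEK and stabilises the vessel wall, while angiopoietin-2, made and stored by endothelial cells themselves, acts as a weaker or opposing ligand depending on the setting. TIE1 binds no angiopoietin with high affinity but forms complexes with TEK and modifies its signal, and VE-PTP removes phosphate from TEK and thereby dampens it.

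The start regions of the 2 receptor genes are shown because the receptors are paralogs whose transcripts gave different results below. The window of 300 bases runs from 250 bases before to 50 after the RefSeq start, on GRCh38.p14, on the plus strand for both genes, at chr9:27108975-27109274 for TEK and chr1:43300732-43301031 for TIE1. RefSeq has 2 such windows for TEK, and the one whose start lay nearest to the GENCODE gene start is given. Capitals mark matches to GGAAG, one form of the GGAA core bound by ETS factors, on either strand. Other GGAA matches are not marked.
TEK: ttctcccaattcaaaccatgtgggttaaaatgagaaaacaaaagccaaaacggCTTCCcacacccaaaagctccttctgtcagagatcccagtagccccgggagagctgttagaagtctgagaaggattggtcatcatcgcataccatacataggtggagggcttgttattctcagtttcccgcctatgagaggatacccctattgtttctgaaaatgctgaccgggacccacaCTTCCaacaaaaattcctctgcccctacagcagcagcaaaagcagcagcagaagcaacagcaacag
TIE1: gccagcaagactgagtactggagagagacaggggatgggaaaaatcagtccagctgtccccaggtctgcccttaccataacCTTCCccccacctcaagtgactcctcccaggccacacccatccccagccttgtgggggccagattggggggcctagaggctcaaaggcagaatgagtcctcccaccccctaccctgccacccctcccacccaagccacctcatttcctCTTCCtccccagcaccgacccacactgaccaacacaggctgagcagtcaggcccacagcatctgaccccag

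Each receptor window held 2 matches to GGAAG, all on the opposite strand, and 71.9% of 35116 RefSeq windows of this length held at least 1. The matches began 197 and 16 bases before the start in TEK and 169 and 21 bases before it in TIE1. The GATA motif GATAAG was in neither window (6.4% of windows held it), nor was the forkhead motif GTAAACA (3.4%) or the SOX motif ACAATG (10.8%). The antioxidant response element TGACNNNGC (13.3%) and the amino acid response element TGATGCAAT (0.2%) were in neither window. These searches covered both strands. The TEK window had a GC content of 48.0% and the TIE1 window 61.3%.

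On GRCh38 in GENCODE v29, TEK lies on chromosome 9 (27109141 to 27230175, plus strand), TIE1 on chromosome 1 (43300993 to 43323108, plus strand) and PTPRB on chromosome 12 (70515866 to 70637440, minus strand). ANGPT1 and ANGPT2 are both on chromosome 8. TEK, TIE1 and ANGPT1 share no exonic sequence with another annotated gene. Opposite-strand genes cover 0.012 of the exonic length of ANGPT2 and 0.09 of that of PTPRB, and whether reads were counted by strand is not given in the sources used here.

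Total counts ran from 30041494 to 41351951 per library. Mitochondrially encoded genes took 4.39% to 5.02% of the counts in lipoic acid libraries and 2.45% to 2.82% in untreated ones, so this share separated the groups, and its part in the results was not tested beyond a fit without those genes, which changed no call among the 5 genes. Untreated replicate 2 stood apart from its group, with a chi-square per degree of freedom of 20.02 and 21.03 against the other two, where the other pairs within a group had 3.09 to 7.83. Even numbers made up 99.13% to 99.34% of the nonzero counts in 4 libraries (the 3 lipoic acid libraries and untreated replicate 1) but 52.01% in untreated replicate 2 and 51.97% in replicate 3. A fit with those 4 libraries alone is therefore given where it changes a result, with untreated replicate 1 as the sole control, which is assumed to vary like the others. Without untreated replicate 1 the groups differ fully in this trait. Of the sorting markers, CD34 was at 1451 CPM untreated and 813 CPM with lipoic acid, KDR and CDH5 (CD144) are given below, and SPN (CD43) had no count in any library. Of the 13 endothelial markers 10 fell and 0 rose with lipoic acid, where 23.3% of all tested genes fell and 24.2% rose. The summed level of these markers went from 8549 to 8981 CPM in untreated libraries to 6156 to 6503 CPM with lipoic acid. In bulk samples such as these, fewer cells of a type and less RNA per cell cannot be told apart.

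ANGPT1, ANGPT2 and TEK rose with lipoic acid, while TIE1 and PTPRB were not called. Calls are edgeR quasi-likelihood results with a Benjamini-Hochberg adjusted p under 0.05 over all tested genes, and levels are CPM, counts relative to the TMM-scaled library total. Thus 3 of the 5 genes were called higher and 0 lower, where 24.2% of all tested genes were called higher and 23.3% lower. Either call was made for 47.4% of all tested genes. For 4 of the 5 genes no lipoic acid library fell within the untreated range or the reverse, 3 of them higher and 1 lower, against 59.1% of all tested genes, of which 30.4% higher and 28.8% lower. The median log2 fold change was 0.19 over the 5 genes and -0.01 over all tested genes.

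**Figure D1:**
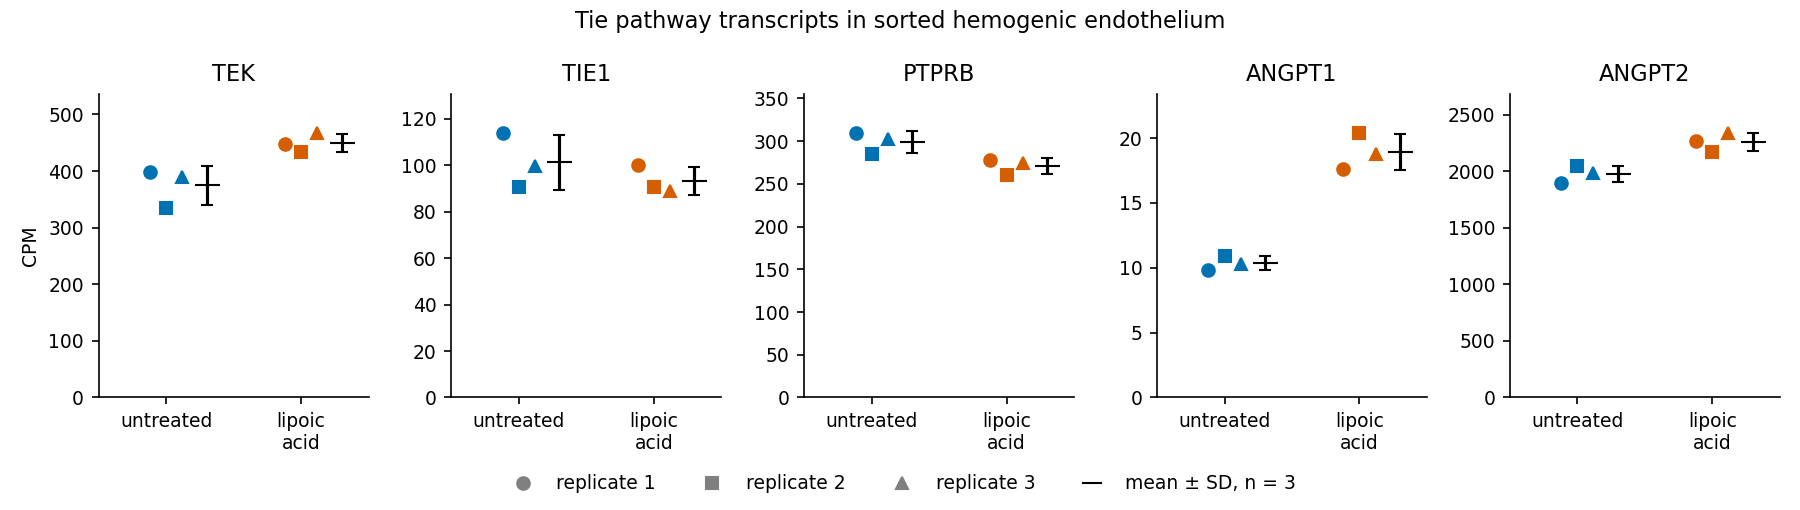
Level of each gene in CPM (vertical axis, from 0, a separate scale in each panel) in the 3 untreated and 3 lipoic acid libraries, with a marker shape for each replicate and the mean ± SD beside it. The lipoic acid libraries lie above all untreated ones for TEK, ANGPT1 and ANGPT2, below them for PTPRB, and among them for TIE1.

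TEK was measured at 398, 336 and 390 CPM in untreated replicates 1 to 3 and at 447, 435 and 467 CPM with lipoic acid. Every lipoic acid library lay above every untreated one, and untreated replicate 2 was the lowest of the 6. The mean rose from 375 ± 34.0 to 450 ± 16.4 CPM (SD, n = 3 each), 1.20-fold with a 95% interval of 1.08 to 1.34 (log2 fold change 0.26, SE 0.07, edgeR adjusted p = 0.0112). TEK was called higher in all 17 alternative fits, the highest adjusted p being 0.0497 (edgeR, without lipoic acid replicate 3). Their log2 fold changes were 0.17 to 0.32. The lowest of these, 0.17 (adjusted p = 0.0364), came after each library was corrected for GC content and transcript length, and the value in the 4 libraries of even counts was 0.18 (adjusted p = 0.0356).

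TIE1 was measured at 114, 90.6 and 99.5 CPM in untreated replicates 1 to 3 and at 100.1, 90.8 and 88.9 CPM with lipoic acid. The groups overlapped, with untreated replicate 2 between lipoic acid replicates 2 and 3. The means were 101 ± 11.7 and 93.2 ± 6.03 CPM (SD, n = 3 each), and the log2 fold change of -0.12 had a 95% interval of -0.32 to 0.08 (edgeR adjusted p = 0.293). In the 4 libraries of even counts TIE1 was called lower (log2 fold change -0.29, adjusted p = 0.0226), and without untreated replicate 1 its log2 fold change was -0.02 (adjusted p = 0.882). With the correction for GC content and length it was -0.01.

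PTPRB was measured at 309, 285 and 303 CPM in untreated replicates 1 to 3 and at 278, 260 and 274 CPM with lipoic acid. All lipoic acid libraries lay below all untreated ones, by a gap smaller than the range within either group. The means were 299 ± 12.8 and 271 ± 9.20 CPM (SD, n = 3 each), with a log2 fold change of -0.14 and a 95% interval of -0.27 to -0.02, which missed the threshold (edgeR adjusted p = 0.0594). PTPRB was called lower in 5 of 17 alternative fits. These were the fit with the correction for GC content and length (log2 fold change -0.28, adjusted p = 0.00258), the 4 libraries of even counts (-0.19, 0.0309), limma voom (-0.15, 0.0135), the fit without untreated replicate 2 (-0.18, 0.0122) and the fit with the replicate number as a block (-0.14, 0.0294).

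ANGPT1, the activating ligand, had the largest change of the 5 genes. It was measured at 9.84, 10.9 and 10.3 CPM in untreated replicates 1 to 3 and at 17.6, 20.4 and 18.8 CPM with lipoic acid. The lowest lipoic acid library was far above the highest untreated one. The mean rose from 10.4 ± 0.533 to 18.9 ± 1.40 CPM (SD, n = 3 each), 1.83-fold with a 95% interval of 1.53 to 2.18 (log2 fold change 0.87, SE 0.11, edgeR adjusted p = 0.000234). These levels rest on 310 to 778 counts per library as deposited, or 160 to 389 with the libraries of even counts halved. ANGPT1 was called higher in all 17 alternative fits, with folds of 1.64 to 1.92.

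Cells other than endothelium can supply angiopoietin-1, among them mural cells and megakaryocytes, so their markers were measured in the same libraries. The sort for CD144-positive, CD43-negative cells was set to exclude mural cells, which lack CD144, and CD43-positive megakaryocytes. How fully it did so was not tested. Of 17 mural and mesenchymal markers 2 rose and 8 fell, where 24.2% of all tested genes were called higher and 23.3% lower. Their summed level was 3015 to 3470 CPM in untreated and 2334 to 2829 CPM in lipoic acid libraries. The 4 named here, taken by lowest p, all fell, and the 2 that rose are not named. MYL9, a smooth muscle myosin light chain, fell 1.96-fold (edgeR adjusted p = 3.1e-05), THY1 1.51-fold and CSPG4, a pericyte proteoglycan, 3.87-fold. ACTA2, smooth muscle actin, fell 1.33-fold, and opposite-strand genes cover 0.301 of its exons. Of 10 megakaryocytic markers 5 were tested, and 4 rose and 0 fell, from a summed level of 0.964 to 2.15 CPM over all 10 to 8.12 to 11.1 CPM. PPBP, GP1BB and TUBB1 had no count in any library. PF4, a platelet chemokine, went from 0.415 ± 0.275 to 3.74 ± 0.733 CPM (8.99-fold). NFE2, a megakaryocytic and erythroid transcription factor, had no count in untreated libraries and 113 counts over the lipoic acid libraries with even counts halved, at least 50.9-fold higher against a floor of 3 counts over the untreated group. ITGA2B, the platelet integrin, was not called without any 1 lipoic acid library (edgeR adjusted p = 0.0746 to 0.111), without untreated replicate 3 (0.124) or with even-count libraries only (0.138). The part of these cells in the ANGPT1 result was not tested.

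ANGPT2, the ligand of endothelial origin, was the most abundant of the 5 transcripts. It was measured at 1898, 2043 and 1983 CPM in untreated replicates 1 to 3 and at 2265, 2172 and 2335 CPM with lipoic acid. The groups did not overlap, although untreated replicate 2 and lipoic acid replicate 2 were close. The mean rose from 1975 ± 73.1 to 2258 ± 82.0 CPM (SD, n = 3 each), 1.14-fold with a 95% interval of 1.06 to 1.23 (log2 fold change 0.19, SE 0.05, edgeR adjusted p = 0.00838). With the correction for GC content and length the rise was no longer called (log2 fold change 0.05, adjusted p = 0.535). It was called in the other 16 alternative fits.

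**Figure D2:**
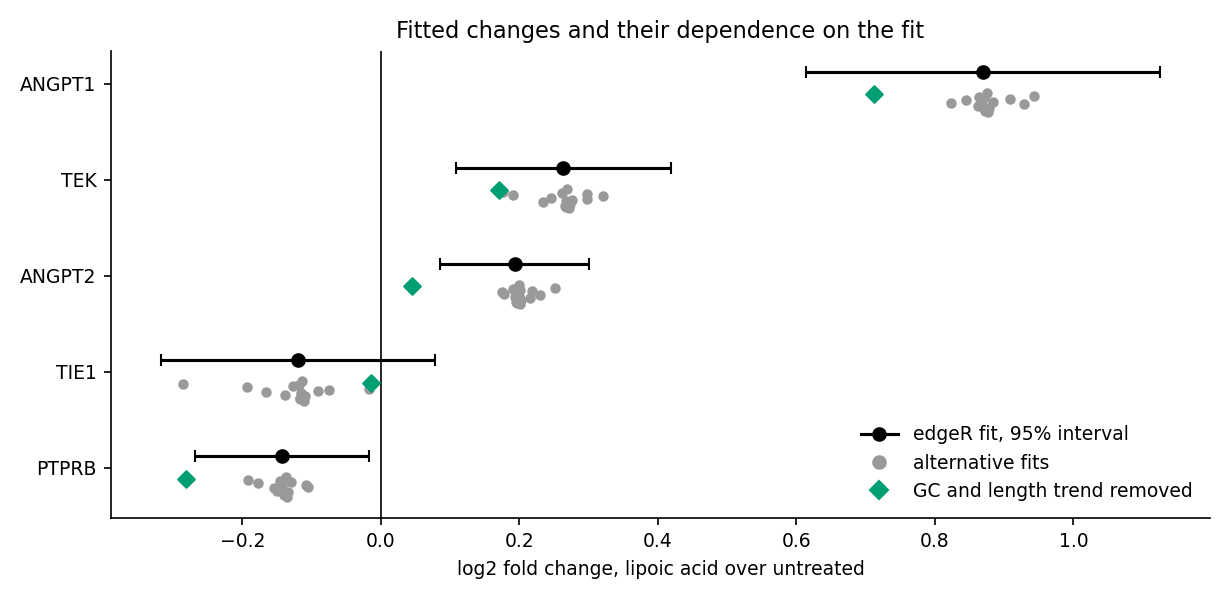
Log2 fold change of lipoic acid over untreated (horizontal axis) for each gene, with the edgeR estimate and its 95% interval in black, 16 alternative fits in grey and the fit with the correction for GC content and length as a diamond. ANGPT1 and TEK lie above 0 in every fit, ANGPT2 nears 0 with that trend removed, and PTPRB moves further below 0.

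The longest GENCODE transcripts of the 5 genes differ in GC content, with 36.0% in ANGPT1, 38.7% in ANGPT2, 42.4% in PTPRB, 45.1% in TEK and 60.8% in TIE1. The 2 genes of lowest GC content were among the 3 that rose, but direction did not follow GC content across all 5. PTPRB, the next lowest, had a log2 fold change of -0.14, and TEK, of higher GC content, 0.26. That correction lowered the log2 fold changes of ANGPT1 (from 0.87 to 0.71), ANGPT2 (0.19 to 0.05), TEK (0.26 to 0.17) and PTPRB (-0.14 to -0.28), and raised that of TIE1 (-0.12 to -0.01).

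Per length, the order of the levels was ANGPT2, TEK, PTPRB, TIE1 and ANGPT1 in both groups. In untreated libraries ANGPT2 stood at 1231 ± 21.6 TPM (counts divided by summed exon length and scaled to the same sum in each library), rank 91 of 29248 symbols, and TEK at 330 ± 42.9 TPM, rank 497. PTPRB followed at 87.0 ± 7.22 TPM and TIE1 at 64.2 ± 9.83 TPM. ANGPT1 was at 6.13 ± 0.0946 TPM. With lipoic acid the levels were 1362 ± 39.1 for ANGPT2, 383 ± 11.8 for TEK, 76.1 ± 1.70 for PTPRB, 57.0 ± 3.30 for TIE1 and 10.9 ± 0.935 TPM for ANGPT1 (SD, n = 3 each). No library of one gene overlapped a library of its neighbour in the order within a group. With the longest transcript as the length, however, TIE1 (80.3 ± 12.2 TPM) and PTPRB (74.5 ± 6.13 TPM) changed places in both groups, and their ranges overlapped in untreated libraries, so their order is not settled by these data.

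Among receptors of the same cells, KDR, the main receptor of vascular endothelial growth factor, stood at 2654 ± 246 TPM untreated and FLT1, a second such receptor, at 1294 ± 24.5 TPM. TEK was thus below both, while TIE1 was near FLT4, the lymphatic member of that family, at 72.3 ± 13.9 TPM untreated (SD, n = 3).

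Because library scaling cancels within a library, the balance of the pathway was also read as ratios of counts. Each ratio holds a constant set by the lengths of the genes, so a value is compared between libraries only. The ratio of TIE1 to TEK was 0.286, 0.270 and 0.255 in untreated replicates 1 to 3 and 0.224, 0.209 and 0.190 with lipoic acid. No libraries overlapped, and the ratio was 1.30-fold lower with lipoic acid (log2 difference -0.38). PTPRB to TEK was 0.777, 0.848 and 0.777 in untreated replicates and 0.621, 0.599 and 0.587 with lipoic acid, again without overlap and 1.33-fold lower (log2 difference -0.41). TEK was thus higher relative to its receptor partner and to its phosphatase in each lipoic acid library than in each untreated one.

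The ratio of ANGPT2 to ANGPT1 was 192, 187 and 192 in untreated replicates 1 to 3 and 129, 106 and 124 with lipoic acid. ANGPT2 counts far exceeded ANGPT1 counts in each library, and the ratio was 1.60-fold lower with lipoic acid (log2 difference -0.67), without overlap. ANGPT2 to TEK was 4.76, 6.09 and 5.09 in untreated replicates and 5.07, 5.0 and 5.0 with lipoic acid. Here the groups overlapped, and the log2 difference of -0.07 became 0.03 without untreated replicate 2 and 0.08 in the 4 libraries of even counts. With 9 ratios tested, an exact two-sided permutation test of 3 libraries against 3 gave p = 0.1 for TIE1 to TEK, PTPRB to TEK and ANGPT2 to ANGPT1, the smallest it can give, and p = 0.7 for ANGPT2 to TEK (adjusted 0.113 and 0.7). With the correction for GC content and length the log2 differences were -0.19 for TIE1 to TEK, -0.45 for PTPRB to TEK and -0.66 for ANGPT2 to ANGPT1, each without overlap.

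**Figure D3:**
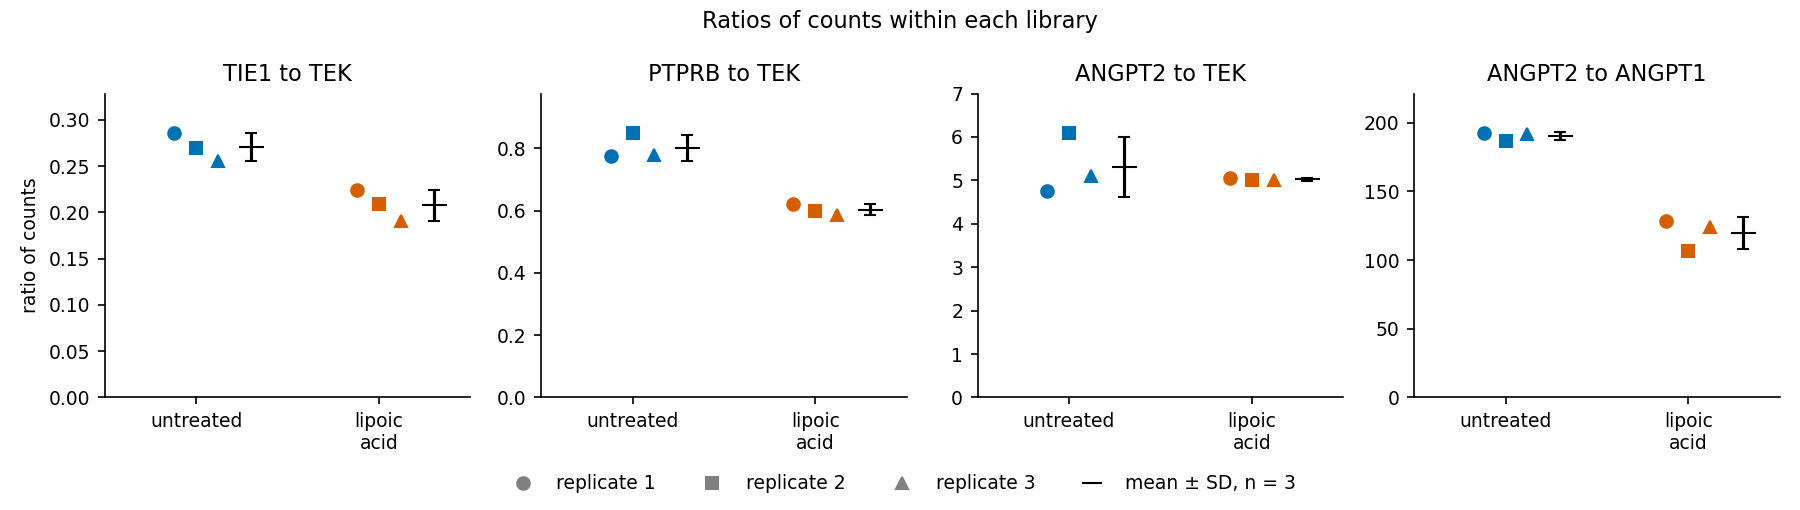
Ratio of counts of 2 genes within each library (vertical axis, from 0, a separate scale in each panel), with a marker shape for each replicate and the mean ± SD beside it. TIE1 to TEK, PTPRB to TEK and ANGPT2 to ANGPT1 are lower in all 3 lipoic acid libraries, and ANGPT2 to TEK overlaps between groups.

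Set against the mean log2 level of the 13 endothelial markers in the same library, all 5 genes were higher in every lipoic acid library than in every untreated one. Because 10 of the 13 markers were called lower, a gene that did not change would also be higher by this measure. The share of all tested genes without overlap by this measure was not computed. The log2 difference was 0.85 for TEK, 0.47 for TIE1, 0.45 for PTPRB, 0.78 for ANGPT2 and 1.46 for ANGPT1 (exact permutation p = 0.1 each, the smallest possible). That mean holds large falls of CLDN5, a tight junction gene (4.80-fold), CLEC14A (2.26-fold), PLVAP (2.02-fold) and ESAM (1.60-fold). Against the median marker the differences were smaller, at 0.44 for TEK, 0.37 for ANGPT2 and 1.04 for ANGPT1 without overlap, while TIE1 (0.06) and PTPRB (0.03) overlapped between the groups.

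Further ligands and binding partners of the receptors were mixed. Of 10 such genes 9 were tested, and 3 rose, 3 fell and 3 did not pass, against 24.2% higher and 23.3% lower over all tested genes. The median log2 fold change was 0.19, against -0.01 over all tested genes. ANGPT4, a TEK ligand, had 1 count over the untreated and 37 over the lipoic acid libraries with even counts halved, a ratio of 50 with a 95% counting interval of 8.43 to 2030, and reached only 0.387 to 0.949 CPM in lipoic acid libraries. SVEP1, a large matrix protein that binds TIE1, was at 15.4, 10.97 and 16.6 CPM in untreated replicates 1 to 3 and at 18.7, 19.0 and 19.1 CPM with lipoic acid. SVEP1 rose 1.32-fold (edgeR adjusted p = 0.0453), but the call was lost without any 1 lipoic acid library (0.0961 to 0.111), without untreated replicate 2 (0.0593) and in the 4 libraries of even counts (0.0866). LECT2, a TIE1 ligand, had 1 count in all, in an untreated library.

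Integrins that bind angiopoietin-2 went in both directions. ITGB5 rose from 481 ± 38.6 to 637 ± 22.3 CPM (1.32-fold, edgeR adjusted p = 0.00071, SD, n = 3 each), whereas ITGA5 fell from 2008 ± 124 to 1598 ± 65.1 CPM (1.26-fold) and ITGAV from 388 ± 32.4 to 309 ± 19.5 CPM (1.26-fold). ITGB3 fell from 2.39 ± 0.968 to 0.906 ± 0.423 CPM, with 0.516 of its exons shared with another annotated gene, and was not called when untreated replicate 2 (adjusted p = 0.0679), lipoic acid replicate 1 (0.086) or lipoic acid replicate 3 (0.0932) was left out, nor with even-count libraries only (0.143). ITGB1 was at 1543, 2347 and 2286 CPM in untreated replicates 1 to 3 and 1908, 1874 and 1984 CPM with lipoic acid, and the groups overlapped (adjusted p = 0.547). ITGB1 was called lower without untreated replicate 1 (log2 fold change -0.26, edgeR adjusted p = 0.00225), the only untreated library of even counts. In the 4 libraries of even counts its log2 fold change was 0.32, and without untreated replicate 2 it was 0.0058. Its direction thus depends on which untreated libraries are used, and replicate 1 cannot be told apart from the even counts. The shedding proteases ADAM17 and MMP14 did not pass (adjusted p = 0.521 and 0.482).

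Among 31 adaptors, kinases and effectors downstream of TEK, 30 were tested. Of these 14 rose, 6 fell and 10 did not pass (median log2 fold change 0.13), against 24.2% higher and 23.3% lower over all tested genes. GRB7, in this list, had no count in untreated libraries and 54 over the lipoic acid libraries with even counts halved. It could therefore only be called higher. With at least 1 CPM required in every library of a group, 13 genes of the list were called higher. RASA1, a Ras-inactivating protein that docks on active receptors, rose 1.59-fold from 84.2 ± 6.41 to 134 ± 6.86 CPM, and MAP2K5, a kinase upstream of ERK5, rose 1.67-fold. MAPK3, which encodes ERK1, fell 1.47-fold from 60.8 ± 5.67 to 41.5 ± 0.475 CPM (SD, n = 3 each). The highest edgeR adjusted p of these 3 was 0.0004. FOXO1, the transcription factor that TEK signalling through AKT restrains, rose 1.13-fold (adjusted p = 0.0335), and it was named here after its value was seen. Without lipoic acid replicate 3 the list had 9 rises and 2 falls, and without lipoic acid replicate 2 it had 3 falls.

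FOXO1 target genes, a class to which ANGPT2 itself belongs, did not move as one. Among 18 tested genes there were 4 rises and 2 falls, against 24.2% higher and 23.3% lower over all tested genes. The other 12 were not called (median log2 fold change of the list 0.11, also with ERBB3 at its bound). ESM1, an endothelial proteoglycan of sprouting tip cells, fell 1.71-fold from 2421 ± 70.9 to 1412 ± 162 CPM (edgeR adjusted p = 3.62e-05), and PIK3IP1, an inhibitor of PI3-kinase, fell 1.46-fold. MXI1, a MYC antagonist, rose 1.63-fold. Without untreated replicate 2, 7 genes of this list were called higher. ERBB3 had no count in untreated libraries and 97 over the lipoic acid libraries with even counts halved, or 1.72 CPM pooled, at least 43.7-fold higher against the floor of 3 counts over the untreated group. It is also expressed by epithelial cells, whose marker list had 6 rises and 1 fall among 8 tested and went from 298 to 329 CPM to 463 to 534 CPM. Among these rises was CDH1, with 1 count over the untreated and 627 over the lipoic acid libraries with even counts halved. A gene so near 0 in untreated libraries could hardly be called lower. The part of epithelial cells in the ERBB3 result was not tested.

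Genes of Weibel-Palade bodies, the endothelial granules that store angiopoietin-2, were evenly divided. Among 22 tested genes there were 7 rises and 7 falls, against 24.2% higher and 23.3% lower over all tested genes. The other 8 were not called (median log2 fold change of the list -0.08). EDN1, the vasoconstrictor endothelin-1, rose 2.28-fold from 74.4 ± 4.76 to 169 ± 1.38 CPM, SELP, the leukocyte adhesion molecule P-selectin, 4.05-fold from 5.26 ± 0.0350 to 21.3 ± 0.859 CPM, and CXCL8, interleukin-8, from 0.569 ± 0.554 to 42.6 ± 8.96 CPM. PLAT, tissue plasminogen activator, fell 1.54-fold from 213 ± 17.1 to 138 ± 4.91 CPM (SD, n = 3 each). The highest edgeR adjusted p of these 4 was 8.4e-05. VWF, the main granule protein, was at 4.29 ± 1.03 and 5.10 ± 0.930 CPM and was not called (adjusted p = 0.409), and it was named after its value was seen. SELP is also a platelet granule gene, and 4 of the 5 tested megakaryocytic markers were called higher, as given above. Any part of such cells in the SELP rise was not tested.

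PTPRB was also read beside the other receptor-type tyrosine phosphatases. Of 19 such genes 14 were tested. Of these 1 rose, 5 fell and 8 did not pass (median log2 fold change -0.16), against 24.2% higher and 23.3% lower over all tested genes. PTPRE fell 1.90-fold from 87.5 ± 3.44 to 45.9 ± 7.58 CPM, PTPRG 1.54-fold from 76.8 ± 4.18 to 49.97 ± 3.28 CPM, PTPRS 1.77-fold and PTPRA 1.18-fold (highest edgeR adjusted p = 0.00358, SD, n = 3 each). PTPRC, which encodes the blood cell phosphatase CD45, had no count in any library. The 1 rise in this list was lost without lipoic acid replicate 1 or 3 or untreated replicate 3.

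Beside TEK and TIE1, 25 other receptor tyrosine kinases were tested. Among them 10 rose, 5 fell and 10 did not pass (median log2 fold change 0.17), against 24.2% higher and 23.3% lower over all tested genes. The rises include ERBB3, which had no count in untreated libraries and so could only be called higher. EPHA2, an ephrin receptor, rose 1.88-fold from 54.6 ± 3.73 to 103 ± 4.27 CPM, and KIT, the stem cell factor receptor of blood progenitors, 1.97-fold from 33.5 ± 4.24 to 66.2 ± 2.98 CPM. FLT1 fell 1.29-fold (SD, n = 3 each; highest edgeR adjusted p of these 3, 0.000182). KDR, a substrate of VE-PTP, rose 1.17-fold and CDH5, the junction partner of VE-PTP, fell 1.55-fold (adjusted p = 0.00409 and 0.000344). The 5 falls in this list became 2 without lipoic acid replicate 2 or 3 and 3 without untreated replicate 1 or 3.

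Markers of other cells also differed, although the sort was set to exclude cells that lack CD144 and blood cells that carry CD43. The calls in these lists stand beside 24.2% of all tested genes called higher and 23.3% lower. Of 10 endoderm and hepatic markers 8 were tested and 7 rose, from a summed level of 26.5 to 37.6 CPM untreated to 153 to 226 CPM with lipoic acid, among them AFP, the fetal albumin-like serum protein (10.3-fold). Of 12 blood and myeloid markers 5 were tested, and 0 rose and 3 fell, from 374 to 408 CPM to 300.4 to 332 CPM, with PTPRC, SPN, AIF1 and MPO at 0. The fall of LAPTM5, a leukocyte membrane protein, was not called without lipoic acid replicate 3 (edgeR adjusted p = 0.0506). Of 8 cardiac markers 4 were tested, and 2 rose and 1 fell, from 16.4 to 22.9 CPM to 23.0 to 23.8 CPM. The fall was of TNNT2, which encodes cardiac troponin T. It was called with each library left out in turn (log2 fold change -3.69 to -2.52, highest edgeR adjusted p = 0.0187). Both rises, of the sarcomere genes ACTN2 and TTN, were lost without any 1 lipoic acid library (edgeR adjusted p = 0.0846 to 0.105 and 0.0924 to 0.116), without untreated replicate 3 (0.0554 and 0.0765) and with even-count libraries only (0.169 and 0.218). The ACTN2 rise was also lost without untreated replicate 1 (0.0523) or 2 (0.0692). The part of these cells in the results above was not tested.

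**Figure D4:**
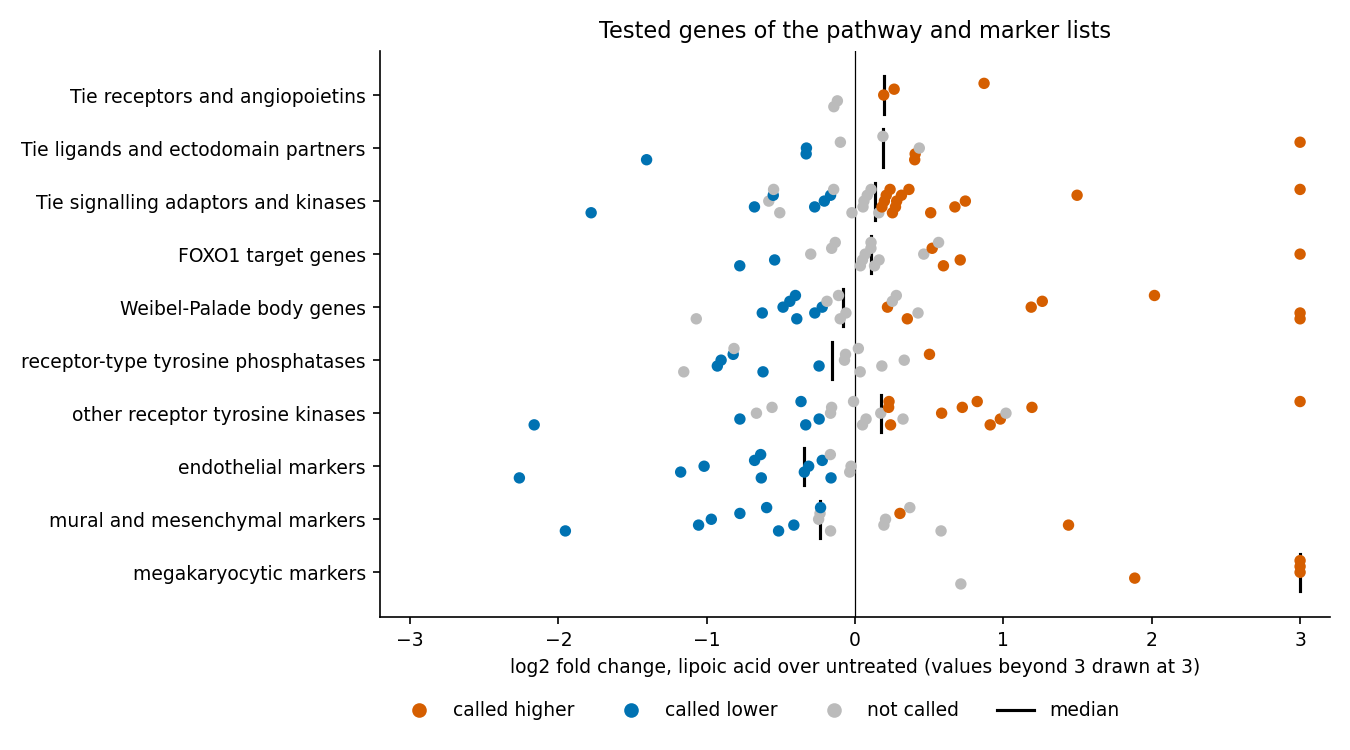
Log2 fold change of lipoic acid over untreated (horizontal axis, values beyond 3 drawn at 3) for each tested gene of the pathway and marker lists, coloured by call, with the median of each list as a bar. The 5 Tie pathway genes lie between -0.14 and 0.87, and the endothelial markers have 10 genes called lower and 0 called higher.

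Over the 6 libraries, the genes with the most similar pattern were found by Pearson correlation of log2 CPM among 9788 tested genes with at least 5 CPM on average, as a description of 6 points in 2 groups. TEK was most like FZD7, IPO9 and SENP6, TIE1 like ASL, TRIM28 and SPATA2L, ANGPT1 like GFPT1, PUDP and STAU1, ANGPT2 like TRMT44, ERO1A and VMP1, and PTPRB like PAPPA, TMEM132A and COL6A1 (correlations of 0.98 to 1.00). With each group's mean removed, FZD7 and SENP6 were again among the 3 nearest to TEK and SPATA2L among the 3 nearest to TIE1, while the nearest genes to ANGPT1, ANGPT2 and PTPRB were others.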

How the data were processed

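PolyA cDNA from 1000 sorted cells per library was amplified and sequenced, 3 libraries a group. The authors deposited raw counts per gene symbol. Per the submitters' processing notes HISAT2, featureCounts and DESeq2 were used with hg38, and the annotation, strand setting and treatment of multiply mapped reads are not given in the sources used here. From these counts edgeR 4.0.16 (R 4.3.3) fitted the 3 lipoic acid against the 3 untreated libraries, with TMM scaling, its filter on low counts and the quasi-likelihood test, Benjamini-Hochberg adjusted over 13780 genes. The script was tested on simulated data. Ratios used a pseudocount of 0.5 counts and an exact permutation test. TPM used GENCODE v29 lengths, found for 29248 of 29436 symbols. Intervals on low counts are exact binomial at 95%, cover counting error only, and take even counts halved. Alternatives were other scalings and filters, DESeq2 1.42.0, limma 3.58.1 voom, a replicate block, each library left out, the even-count libraries halved or alone, a GC content and length trend removed, and mitochondrial genes removed. From each context or marker list the called genes with the smallest p were named, at most 4, and all genes of the ligand and partner list, KDR and CDH5 were eligible. For each of the 5 genes the 3 most correlated genes were also named. The 5 genes, the 6 context lists and the 7 marker lists were chosen with earlier results of these data known. Some genes that this rule also named are not reported here.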

Additional observations from a re-analysis of the deposited data

How the results depend on the processing

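Across 17 alternative fits TEK and ANGPT1 stayed called higher, and the other changes were as follows. The ANGPT2 log2 fold change was 0.045 (edgeR adjusted p = 0.535) after correction for GC content and length. PTPRB was called lower after that correction (-0.28), with limma voom (-0.15), with the replicate block (-0.14) and without untreated replicate 2 (-0.18). The number of the 5 genes called lower, 0 as reported, was therefore 1 in each of these settings. After the correction the number called higher was 2 in place of 3. PTPRB stood at -0.19 and TIE1 at -0.29 in the 4 libraries of even counts alone. In the 4 libraries of even counts alone, the signalling list had 9 rises, the FOXO1 target list 7 and the receptor phosphatases 0, and after the correction the FOXO1 targets had 5 falls. Leaving out each library in turn gave log2 fold changes of 0.19 to 0.32 for TEK, -0.19 to -0.02 for TIE1, 0.82 to 0.93 for ANGPT1, 0.18 to 0.23 for ANGPT2 and -0.18 to -0.11 for PTPRB, with 0 to 1 of the 5 genes called lower. It gave 9 to 13 rises and 2 to 6 falls in the signalling list, 4 to 7 rises among FOXO1 targets, 0 to 1 rises among phosphatases and 2 to 5 falls among other receptor kinases. The ANGPT2 to TEK log2 ratio turned to 0.028 without untreated replicate 2 (range -0.15 to 0.028 over the libraries left out) and to 0.076 in the 4 libraries of even counts alone. ITGB1 was called lower at -0.26 without untreated replicate 1, turned to 0.0058 without untreated replicate 2 and to 0.32 in those 4 libraries, and ADAM17 to -0.10 without lipoic acid replicate 3. With the longest transcript as length 6 of 10 places in the order of levels held. Same-numbered libraries of the 2 groups had deviation correlations of 0.046, 0.051 and 0.069, each the best match for its number but under 0.1. With 3 libraries a group, these values cannot decide whether the numbers pair the libraries. With the replicate block 3354 of all genes were called higher, against 3329 without it, and PTPRB was the only 1 of the 5 genes whose call changed. The ratios after the correction, in the 4 libraries alone and to the median marker were chosen after seeing the data. Depth limits ANGPT4, LECT2 and other genes of a few counts.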
